A study of Mus musculus with 10 samples.

Results

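The immunoglobulin light-chain variable genes were examined in bulk RNA of HSPCs, hematopoietic stem and progenitor cells of the bone marrow, which give rise to all blood cells. A row was taken as a member when its symbol began with Igkv (kappa) or Iglv (lambda), its annotated type was an immunoglobulin V gene, and at least 1 library had a count of 1 or more for it. Of 100 such rows, 90 qualified, 87 kappa and 3 lambda, among 26950 genes with a count and 55573 rows in all. The 10 rows left out had 0 counts everywhere, and just inside the limit lay Igkv10-95 and Igkv12-38 with a single count each and 4 genes with 2 counts. The next lowest total was 16 counts. The members were thus selected on their counts, so that these genes were detected is not a result.

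All cells came from bone marrow of C57BL/6 mice, 16 weeks of age, that had received 500 cGy of total body radiation. The first group of 5 libraries (Saline) came from mice injected subcutaneously with saline, and the other of 5 libraries (EGF) from mice that received epidermal growth factor by that route, with cells taken 6 weeks after irradiation. Both groups were irradiated, and no unirradiated library was analysed here. The sort gate of the cells, the schedule of EGF and whether each library came from its own mouse were not stated, so every p-value reflects only variation among these 10 libraries, some of which may be technical. The comparison asks how EGF after radiation injury alters the transcriptome of these cells.

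An antibody light chain is made by a B-lineage cell that joins a single V gene to a J segment, at the kappa locus on chromosome 6 or the lambda locus on chromosome 16, and splices the joined exon to a constant gene (Igkc for kappa, Iglc genes for lambda). Each clone therefore transcribes mainly a single V gene, and the mix of V transcripts in a sample reflects which clones it holds and how much RNA each makes. Plasma cells, which secrete antibody and reside in marrow, carry these transcripts in very large amounts, whereas blood stem cells do not rearrange light-chain genes. Most mouse B cells use kappa.

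The germline ends of 8 genes that lead the counts below are shown first, because this is where the V segment meets the J segment. Each run is the last 60 coding bases of the gene, 5′ to 3′, from the GENCODE M21 transcripts (GRCm38), with the codon of the last in-frame cysteine in capitals. The bases after that codon begin the third complementarity-determining region, the loop that the V and J segments build together.
Igkv14-126: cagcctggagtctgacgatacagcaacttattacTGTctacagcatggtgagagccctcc
Igkv15-103: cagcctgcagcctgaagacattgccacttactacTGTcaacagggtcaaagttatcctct
Igkv1-135: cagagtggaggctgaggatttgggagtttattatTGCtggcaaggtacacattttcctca
Igkv1-110: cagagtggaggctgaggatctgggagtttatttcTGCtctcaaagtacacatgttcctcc
Igkv19-93: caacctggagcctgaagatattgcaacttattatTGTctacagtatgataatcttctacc
Igkv5-39: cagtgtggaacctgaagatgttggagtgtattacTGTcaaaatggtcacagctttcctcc
Igkv16-104: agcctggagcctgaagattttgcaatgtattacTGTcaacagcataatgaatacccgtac
Iglv1: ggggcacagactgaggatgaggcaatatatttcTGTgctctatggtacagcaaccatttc

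Near-copies bear on how well such genes can be counted. The leading kappa gene Igkv14-126 with its closest member Igkv14-111, and the lambda pair Iglv1 and Iglv2, are shown because results below turn on them, although many other pairs are closer than the kappa pair. Their V exons are printed with the differing bases in capitals. Igkv14-126 (chr6:67896345-67896642, plus strand) and Igkv14-111 (chr6:68256572-68256869, plus strand) differ at 27 of 298 coding bases, and the longest stretch without a difference is 44 bases.
Igkv14-126: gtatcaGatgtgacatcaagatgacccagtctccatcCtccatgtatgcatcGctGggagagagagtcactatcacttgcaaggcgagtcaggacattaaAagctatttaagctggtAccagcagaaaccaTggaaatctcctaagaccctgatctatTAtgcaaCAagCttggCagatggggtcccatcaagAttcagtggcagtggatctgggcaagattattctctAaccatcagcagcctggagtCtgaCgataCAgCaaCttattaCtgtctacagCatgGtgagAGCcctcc
Igkv14-111: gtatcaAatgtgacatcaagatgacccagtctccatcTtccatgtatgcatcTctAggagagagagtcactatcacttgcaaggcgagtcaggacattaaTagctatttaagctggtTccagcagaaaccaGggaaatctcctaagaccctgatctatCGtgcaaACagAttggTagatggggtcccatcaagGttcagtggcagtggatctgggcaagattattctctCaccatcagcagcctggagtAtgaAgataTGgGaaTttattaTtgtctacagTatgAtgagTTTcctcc
The last 300 coding bases of Iglv1 (chr16:19085017-19085316, minus strand) and Iglv2 (chr16:19260401-19260700, minus strand) differ at 8 positions, with a shared stretch of 104 bases.
Iglv1: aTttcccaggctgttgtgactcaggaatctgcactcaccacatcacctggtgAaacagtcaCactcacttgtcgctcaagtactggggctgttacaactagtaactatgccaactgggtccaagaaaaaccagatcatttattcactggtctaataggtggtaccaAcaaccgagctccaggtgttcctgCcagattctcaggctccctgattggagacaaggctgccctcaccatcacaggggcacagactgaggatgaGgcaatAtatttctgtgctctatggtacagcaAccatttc
Iglv2: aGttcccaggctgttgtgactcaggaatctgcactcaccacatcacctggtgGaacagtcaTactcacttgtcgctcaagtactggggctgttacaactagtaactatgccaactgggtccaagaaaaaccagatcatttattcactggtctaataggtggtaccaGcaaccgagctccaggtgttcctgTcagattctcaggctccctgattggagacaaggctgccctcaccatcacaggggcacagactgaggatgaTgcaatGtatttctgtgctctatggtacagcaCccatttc
Over all 90 members the V exon of the closest other member was 93.6% identical in the median, and for 40 members it was 95% identical or more. Igkv15-103 (75.1% to its closest member) and Igkv19-93 (79.1%) had no near-copy among the members, while Igkv1-110 and Igkv1-117 were 96.8% identical. Rows outside the members, such as V pseudogenes, were not aligned. The treatment of reads that fit several genes was not stated, and the V genes of expressed antibodies can be mutated, so counts of close pairs are uncertain.

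Total counts ranged from 6805106 to 8370820 per library. A count of 0 allows up to 3 counts, which is 0.354 to 0.428 CPM (counts per 1000000 counts of a library, with library sizes scaled by edgeR's TMM method) in these libraries and covers counting error only. EGF replicate 5 stood apart, with a count for 12731 genes against 18734 to 20046 in the other 9 libraries, and the main group values are also given without it. The progenitor genes Kit (380 to 505 CPM) and Cd34 (254 to 427 CPM), which encode the stem cell factor receptor and a progenitor surface antigen, were present in all libraries.

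Light-chain V transcripts had a lower mean level with EGF, but the groups overlapped. Their counts summed to 2981, 1923, 1380.2, 2727 and 1460.2 CPM in Saline replicates 1 to 5 and to 1633, 1010.3, 1946, 990.1 and 541 CPM in EGF replicates 1 to 5. EGF replicates 2, 4 and 5 lay below all Saline libraries, and EGF replicates 1 and 3 lay within the Saline range. The means were 2094 ± 729 CPM (SD, n = 5) with saline and 1224 ± 561 CPM (SD, n = 5) with EGF, a difference of -0.84 between the mean log2 levels where the SD within groups was 0.62. Without EGF replicate 5 the EGF mean was 1395 ± 474 CPM (SD, n = 4) and the log2 difference -0.58. Because the genes were chosen with results of these data known, no p-value is given for their sum. In bulk RNA, fewer cells of a type and less RNA per cell cannot be told apart.

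The kappa constant gene Igkc and Jchain, which encodes the joining chain of secreted IgM and IgA, were likewise highest in Saline replicate 1 and lowest in EGF replicate 5. Igkc was at 2773 ± 994 CPM with saline and 1545 ± 763 CPM with EGF (SD, n = 5 each), a log2 fold change of -0.84 (SE 0.37) with an edgeR adjusted p of 0.552. Without EGF replicate 5 its EGF mean was 1791 ± 613 CPM (SD, n = 4) and the log2 fold change -0.63. Jchain was at 897 ± 328 CPM with saline and 464 ± 280 CPM with EGF (SD, n = 5 each), a log2 fold change of -0.95 (SE 0.46) with the same edgeR adjusted p, and without EGF replicate 5 the EGF mean was 555.5 ± 219.7 CPM (SD, n = 4) and the log2 fold change -0.69. Neither gene passed the test. Set against Jchain, the light-chain V level was, in 9 libraries, 2.26 to 2.86 times that of Jchain, and 5.55 times in EGF replicate 5. Kappa V counts amounted to 0.677 to 0.775 per Igkc count with saline and 0.678 to 0.896 with EGF, with the highest ratio again in EGF replicate 5 (0.678 to 0.818 in the other EGF libraries).

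**Figure D1:**
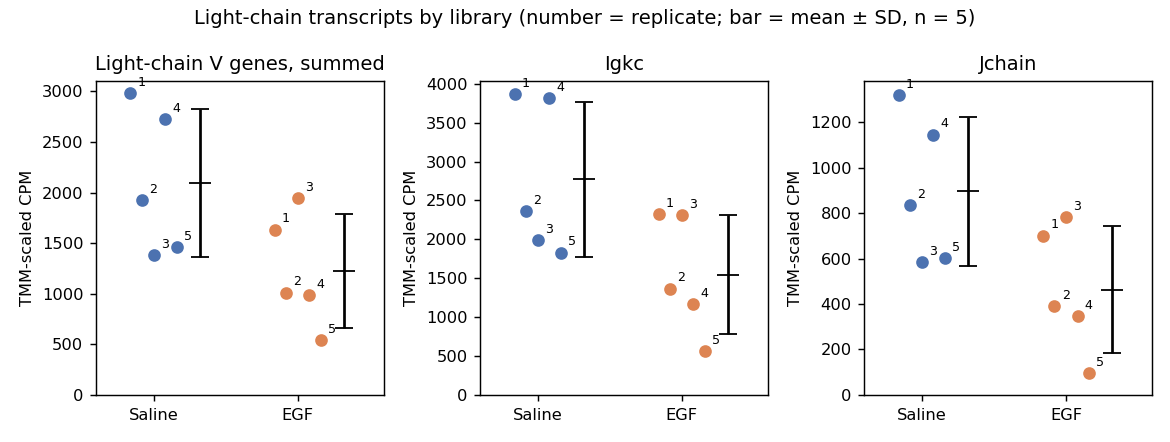
Level of all light-chain V genes summed (left), Igkc (middle) and Jchain (right) in TMM-scaled CPM, by group. Each point is a library labelled with its replicate number, and the bar beside it is the mean ± SD of 5; in each panel EGF replicates 2, 4 and 5 lie below all Saline libraries and EGF replicates 1 and 3 lie within their range.

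The markers of other cell types were measured beside this sum. Of 15 plasma cell genes, 14 had a log2 fold change below 0 (median -0.53, over all genes -0.01), and 0 passed the edgeR test. They summed to 1001 to 1871 CPM with saline and to 377 to 1281 CPM with EGF, where the lowest value was that of EGF replicate 5. Jchain alone gave 583 to 1321 CPM of the saline sums and 97.4 to 784 CPM of the EGF sums. EGF replicate 5 had 0 counts of Tnfrsf17, Derl3, Pim2 and Eaf2 but 41 of Mzb1, the most of any library. The values of this list without that library were not computed. Among genes of pro-B and pre-B cells, the surrogate light chain genes Igll1 (0 to 7 counts), Vpreb1 (0 to 4), Vpreb2 (0 to 4) and Vpreb3 (0 to 2) were near 0. Others were present, such as Cd79a (4 to 68 counts) and Cd79b (66 to 217), the signalling chains of the B-cell receptor, and Il7r (2 to 105), the interleukin-7 receptor. Rag1 and Rag2, whose products cut V and J segments, were at 3.55 ± 0.828 and 3.34 ± 1.54 CPM with saline and 5.17 ± 2.92 and 2.95 ± 1.71 CPM with EGF (SD, n = 5 each). EGF replicate 5 had 65 counts of Rag1, the most of any library, and 0 of Rag2. The part of these cells in the light-chain level was not tested.

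Of the 15 pro-B and pre-B genes, 8 were abundant enough to test, and 5 of the 8 had a log2 fold change below 0. The summed level of that list was 212 to 425 CPM with saline and 192 to 375 CPM with EGF, most of it from Dntt, which encodes the polymerase that adds bases at V(D)J joints and had 1206 to 2941 counts per library. Mature B genes summed to 109 to 176 CPM with saline and 117 to 260.1 CPM in 4 EGF libraries and 21.01 CPM in EGF replicate 5. Most of that sum came from Cd74 (60 to 773 counts per library) and H2-Ab1 (52 to 690). Ms4a1 (0 to 15 counts), Cd22 (0 to 12), Fcer2a (0 to 4), Ighd (0 to 15) and Fcmr (0 to 17) had few, so the sum says little about mature B cells. Cr2 was at 0 in most libraries, and 2 of the 4 mature B genes tested had a log2 fold change below 0. Neutrophil genes summed to 1447 to 5189 CPM and 1583 to 2654 CPM, and stem and progenitor genes to 1706 to 1989 CPM and 1956 to 2174 CPM, in the same order of groups. Most of the neutrophil sum came from Mpo, with 10295 to 32531 counts per library. Of the 7 neutrophil genes tested, 3 had a log2 fold change below 0 and 4 above (median 0.19). The 3 below were Mpo, Elane and S100a8. The 4 above were S100a9, Ltf, Camp and Ngp, each with its most counts in EGF replicate 5 (1254, 923, 182 and 929). In the other EGF libraries they had 5 to 196, 0 to 156, 0 to 30 and 0 to 199 counts. The median of this list without EGF replicate 5 was not computed. Among 26 genes of light-chain rearrangement and transcription, 24 were tested, 12 of them below 0 and 12 above, with a median log2 fold change of 0.02. None of these lists held a gene that passed the edgeR test.

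A single kappa gene dominated the light-chain V counts. Igkv14-126 (ENSMUSG00000094345), on chromosome 6 from 67896172 to 67896642 (GRCm38, plus strand), held the largest share in 8 of 10 libraries. Its share of all light-chain V counts was 33.9%, 27.9%, 18.8%, 5.2% and 15.6% in Saline replicates 1 to 5 and 19.7%, 30.6%, 18.2%, 21.01% and 33.5% in EGF replicates 1 to 5. It ranked 2 in EGF replicate 3 and 5 in Saline replicate 4. Over all libraries its mean share was 22.4% of counts and 23.0% when counts were divided by exonic length, ahead of the next gene, Igkv15-103, at 5.44% of counts and 5.33% per length. The exonic lengths of the members ran from 338 to 501 bases, and the 10 leading genes were the same by counts and per length.

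In absolute level, Igkv14-126 had 1011, 537, 260, 141 and 228 CPM in Saline replicates 1 to 5 and 323, 309, 354, 208.0 and 181 CPM in EGF replicates 1 to 5. All EGF libraries lay within the Saline range, which was the wider one. The log2 fold change was -0.66 (SE 0.46, edgeR adjusted p = 0.633) with all libraries and -0.08 without Saline replicate 1. Among the members tested, Igkv14-126 had the lowest estimated dispersion, 0.25, which still exceeded that of 73.9% of all genes tested.

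Igkv14-126 is known as the light-chain partner of the heavy-chain gene Ighv11-2 in B-1 cells whose antibodies bind phosphatidylcholine, and Ighv11-2 was looked up for that reason after the light-chain values were seen. Ighv12-3, another heavy-chain gene of such antibodies, was looked up as well and had 32 and 45 counts in Saline replicates 1 and 4, 12 in EGF replicates 1 and 2 and 0 in the other 6 libraries. Igkv14-126 and Ighv11-2 had counts of similar size in 9 of 10 libraries. The counts of Igkv14-126 and Ighv11-2 were 7968 and 6515 in Saline replicate 1, 4138 and 3120 in Saline replicate 2, 2186 and 1764 in Saline replicate 3, 1047 and 803 in Saline replicate 4 and 1710 and 1463 in Saline replicate 5. With EGF they were 2572 and 2046, 2401 and 1780, 2481 and 2364, and 1763 and 1935 in replicates 1 to 4. The ratio of light to heavy gene was thus 0.911 to 1.35 in 9 libraries, and 0.286 in EGF replicate 5, with 1292 and 4525 counts. Over all V genes that library also had the lowest ratio of light to heavy counts, 0.498 against 1.05 to 1.57 in the others. A ratio near that of this pair was thus also seen over all V genes. Bulk counts cannot show whether both transcripts came from the same cells, and an origin in B-1 cells was not tested.

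Behind Igkv14-126, the order of genes changed with the library. Igkv19-93 led in Saline replicate 4 with 16.2% of light-chain V counts (3284 counts), followed there by Igkv1-135 with 15.1%. Igkv14-111 led in EGF replicate 3 with 23.6% (3218 counts) and was second in EGF replicate 4 with 15.2%. The second place was held by Igkv1-110 in Saline replicate 1 (10.5%), Igkv15-103 in Saline replicates 2 and 3 (9.06% and 16.4%), Igkv5-39 in Saline replicate 5 (8.31%), Igkv16-104 in EGF replicate 1 (14.3%), Igkv12-46 in EGF replicate 2 (10.5%) and Igkv8-21 in EGF replicate 5 (9.15%). Such genes were often nearly missing elsewhere. Igkv19-93 had 4 counts in Saline replicate 1, Igkv14-111 had 1 there, and Igkv12-46 had 0 in Saline replicates 1, 2 and 5 and in EGF replicate 5.

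**Figure D2:**
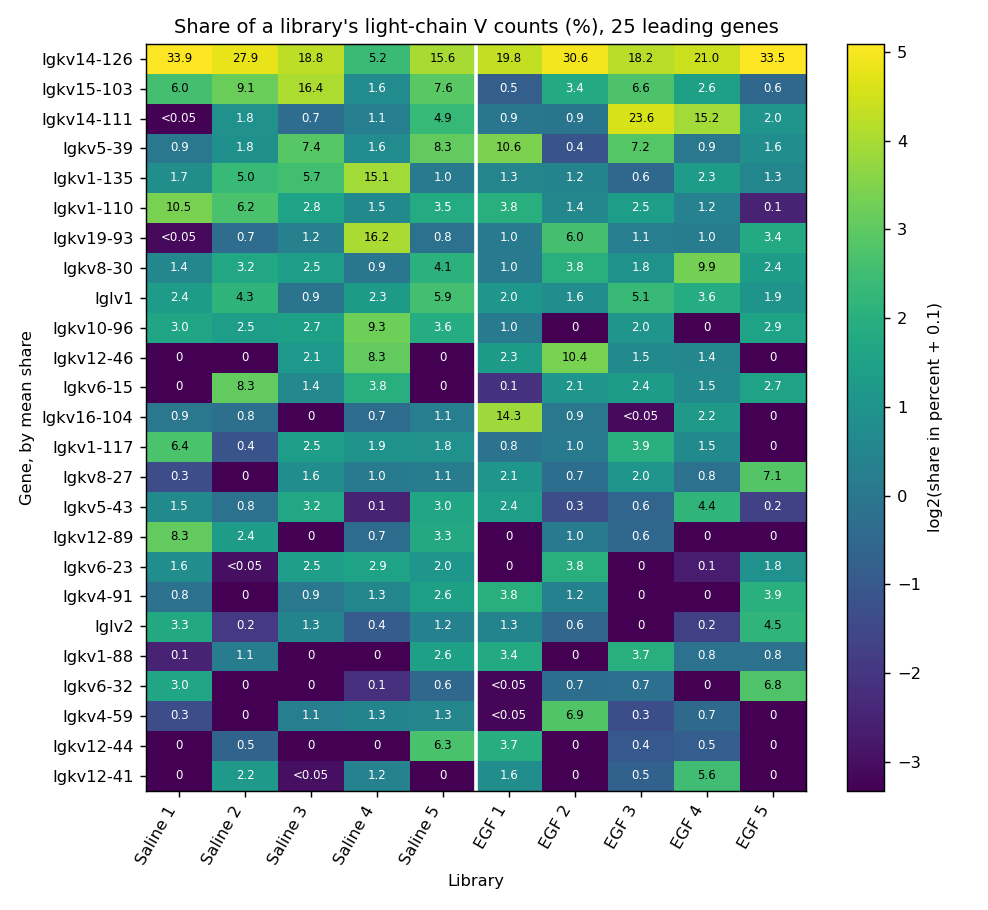
Share of each library's light-chain V counts (percent, written in the cells and coloured on a log2 scale with 0.1 added) for the 25 genes of highest mean share, with the 5 Saline libraries left of the white line and the 5 EGF libraries right of it. Igkv14-126 is the bright top row in 9 libraries, and the other bright cells, such as Igkv19-93 in Saline replicate 4 (16.2%) and Igkv14-111 in EGF replicate 3 (23.6%), fall in different rows from library to library.

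Most of the abundant members were nearly missing from some library. Of 61 members that reached 100 counts in at least 1 library, 52 had 0 or 1 count in another, and 21 had 0 or 1 count in 5 or more libraries. For 23 of the 61, a single library held 50% or more of all counts of the gene, and for 0 of them 90% or more. The 61 were picked by their highest library, which favours such a pattern. EGF replicate 5, in which fewer genes had a count, is among the libraries. The same shares over all genes were not computed. A count in every library was seen for 12 members, and 10 counts or more in every library for 6, namely Igkv14-126, Igkv15-103, Igkv1-135, Igkv5-39, Igkv8-30 and Iglv1. Variation between libraries of a group was large. The median biological coefficient of variation (square root of edgeR's dispersion) was 159% for the 50 members abundant enough to test, against 29.2% for all 12874 genes tested, and 46 of the 50 exceeded the 90th percentile of all genes.

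The leading gene of a library held 15.6% to 33.9% of its light-chain V counts with saline and 19.7% to 33.5% with EGF, with an exact Clopper-Pearson 95% interval of 31.99% to 34.99% in EGF replicate 5, the library with the fewest counts. The means were 22.5% ± 8.07 and 25.7% ± 6.05 (SD, n = 5 each), a difference of 3.19 points, less than the spread within groups (7.13), and 1.24 points without EGF replicate 5. Counted by family, the leading share was 25.9% ± 6.69 with saline and 33.6% ± 7.85 with EGF (SD, n = 5 each), a difference of 7.72 points, and 3 EGF libraries lay above all Saline libraries. EGF replicate 5 did so only just, at 35.48% against 35.36% in Saline replicate 1. The family difference was not computed without EGF replicate 5. The effective number of V genes (inverse Simpson index, the number of equally used genes that would give the same concentration) was 6.8, 9.31, 12.3, 13.5 and 17.3 in Saline replicates 1 to 5. In EGF replicates 1 to 5 it was 12.2, 8.24, 9.21, 10.9 and 6.95, all within the Saline range. It took 3 to 7 genes to reach 50% of the counts with saline and 4 or 5 with EGF.

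The number of V genes seen was 49, 50, 47, 74 and 51 in Saline replicates 1 to 5 and 57, 53, 46, 43 and 32 in EGF replicates 1 to 5. These numbers grow with the counts, which were 10935 to 23487 with saline and 3859 to 13643 with EGF. At an equal 3859 light-chain V counts the expected numbers were 43.0 to 67.9 with saline and 32 to 52.01 with EGF, with means of 50.2 ± 10.1 and 44.4 ± 8.28 (SD, n = 5 each). The difference of -5.86 genes was less than the spread within groups (9.23). It was -2.96 without EGF replicate 5, counted at 7845, and -1.44 without Saline replicate 4, the library with the most genes.

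**Figure D3:**
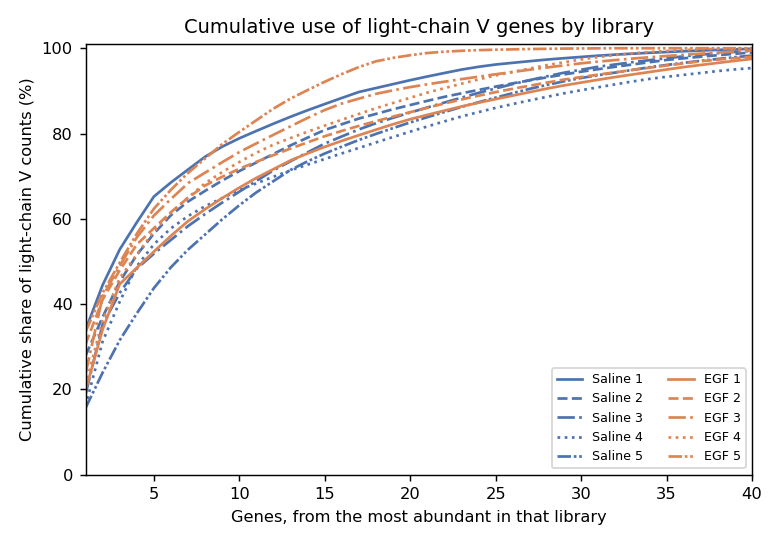
Cumulative share of light-chain V counts (percent) against the number of genes, taken from the most abundant gene of each library, for 5 Saline (blue) and 5 EGF (orange) libraries with a line style for each replicate. The first gene holds between 15.6% and 33.9%, the curves of both groups cross, and EGF replicate 5 flattens earliest.

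Libraries shared V gene use over a similar range within and between the groups. The shared part of the usage (the sum over genes of the smaller of the shares in both libraries) had a median of 50.2% over the 10 pairs within Saline (29.4% to 63.2%), 44.8% over the 10 pairs within EGF (36.9% to 58.6%) and 48.3% over the 25 pairs between the groups (30.0% to 61.2%). With Igkv14-126 left out the medians were 43.6%, 31.7% and 34.0%. These are descriptions of pairs that share libraries, and no test was made.

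In a kappa symbol the number before the hyphen is the V gene family and the number after it the place along the locus. By family, the 4 members of Igkv14 held 23.2% ± 11.0 of light-chain V counts with saline and 33.6% ± 7.85 with EGF (SD, n = 5 each), from 6.31% in Saline replicate 4 to 41.8% in EGF replicate 3. The 7 members of Igkv1 held 14.3% ± 4.66 and 6.73% ± 3.62, and the Saline libraries (9.03% to 19.6%) overlapped the EGF libraries (2.38% to 10.7%). The largest family, Igkv4 with 21 members, held 8.33% ± 2.50 and 8.74% ± 3.63. There were 21 families in all, the lambda genes counted as a family of their own.

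Along the kappa locus the counts came mostly from the far end. The 87 kappa members lie between 18.4 and 3166.3 kb upstream of the first J segment, Igkj1. The 29 farthest from it, at 1914.9 kb or more, held 60.1% ± 7.36 of kappa V counts with saline and 58.9% ± 5.69 with EGF (SD, n = 5 each). The 29 nearest held 20.9% ± 5.87 and 23.5% ± 8.44, and the 29 between them 19.0% ± 4.64 and 17.6% ± 7.10. Igkv14-126 belongs to the far set, which without it held 28.5% to 60.2% of the remaining kappa counts (median 47.3% over the 10 libraries). Of the 87 genes, 34 have the orientation of Igkc and join by deletion of the DNA between, and 53 have the opposite one and join by inversion. The 34 held 53.2% ± 13.8 of kappa V counts with saline and 53.96% ± 8 with EGF, and the groups overlapped.

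**Figure D4:**
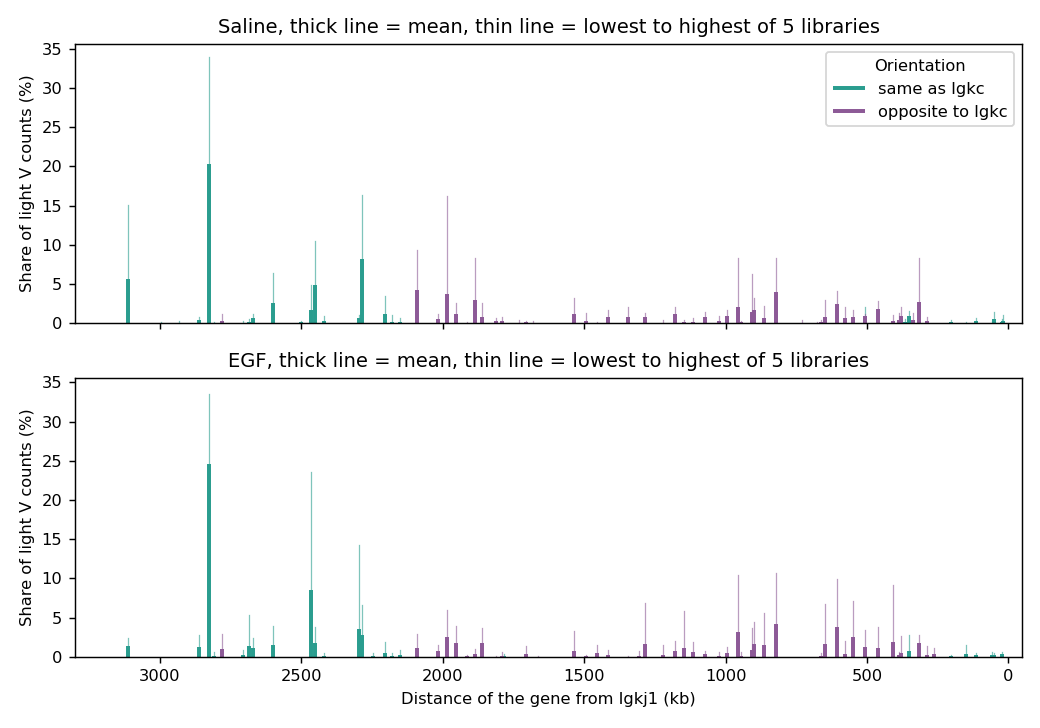
Share of light-chain V counts (percent) of each kappa member against its distance from Igkj1 in kb, with Saline above and EGF below, thick lines for the mean and thin lines for the lowest to highest of 5 libraries, coloured by orientation relative to Igkc. The tallest line in both panels is Igkv14-126, in the far set, and the long thin lines show how far single libraries lie from the mean.

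Lambda V genes made up a small part, and that part varied as much within the groups as between them. Their share of light-chain V counts was 5.87%, 4.76%, 2.42%, 2.90% and 7.22% in Saline replicates 1 to 5 and 3.39%, 2.28%, 5.19%, 3.88% and 6.40% in EGF replicates 1 to 5. The exact Clopper-Pearson 95% interval was 5.65% to 7.22% for EGF replicate 5, the library with the fewest counts. The ratio of kappa to lambda V counts ranged from 12.9 to 40.3 with saline and from 14.6 to 42.8 with EGF. The mean lambda share was 4.63% ± 2.01 with saline and 4.23% ± 1.602 with EGF (SD, n = 5 each). The difference of -0.41 points was less than the spread within groups (1.82), and its sign changed without Saline replicate 5 (0.24) or EGF replicate 2 (0.08). It was -0.95 without EGF replicate 5, -0.96 without Saline replicate 3, -0.84 without Saline replicate 4, -0.10 without Saline replicate 1 and -0.20 without EGF replicate 1.

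The constant genes were not used to choose the members, but V and constant parts belong to the same transcripts, so they are no independent check. Iglc1, Iglc2 and Iglc3 together made up 11.0%, 11.6%, 4.36%, 6.37% and 16.9% of light-chain constant counts in Saline replicates 1 to 5. In EGF replicates 1 to 5 they made up 7.14%, 5.03%, 10.6%, 9.11% and 12.2%. Saline replicate 3 and EGF replicate 2 had the lowest lambda shares and Saline replicate 5 the highest by V genes and by constant genes alike. The lowest of all was EGF replicate 2 by V genes and Saline replicate 3 by constant genes. The constant share was larger than the V share in every library, with 0.283 to 0.443 lambda V counts per Iglc count where kappa had 0.677 to 0.896. How reads that fit more than 1 Iglc gene were counted was not stated, so their single counts are uncertain.

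**Figure D5:**
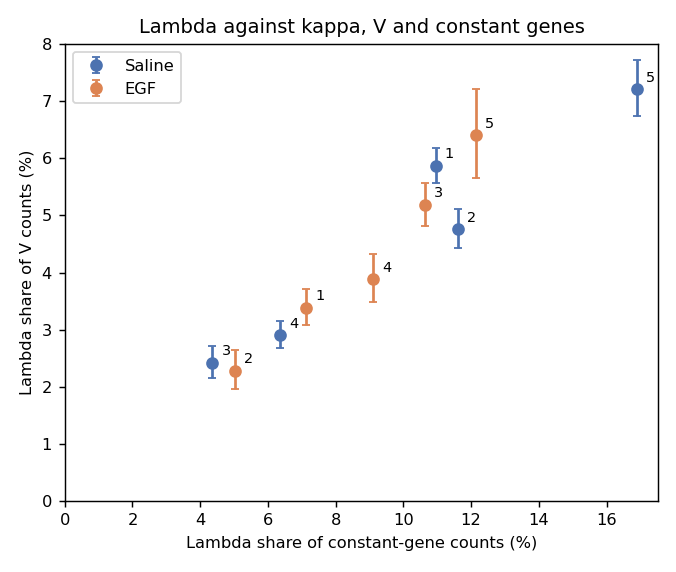
Lambda share of V counts (percent, with exact 95% binomial intervals) against the lambda share of constant-gene counts (percent) in 5 Saline and 5 EGF libraries, labelled with their replicate numbers. The groups are interspersed, from Saline replicate 3 and EGF replicate 2 at the lower left to Saline replicate 5 at the upper right.

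The 3 lambda genes lie on chromosome 16, Iglv1 from 19085017 to 19085500, Iglv3 from 19241207 to 19241690 and Iglv2 from 19260401 to 19260859 (GRCm38). Iglv1, which joins to the segments of Iglc1 and Iglc3, had 70.6, 83.0, 11.8, 62.8 and 86.5 CPM in Saline replicates 1 to 5 and 33.5, 16.6, 99.7, 35.5 and 10.5 CPM in EGF replicates 1 to 5. EGF replicate 3 was the highest of all and Saline replicate 3 was the lowest but for EGF replicate 5, so the groups overlapped (log2 fold change -0.68, SE 0.61, edgeR adjusted p = 0.694). Without EGF replicate 3 the log2 fold change was -1.39. Iglv2, which joins mainly to the segment of Iglc2, had 779, 24, 148, 91 and 132 counts with saline and 166, 46, 0, 17 and 172 with EGF. It made up 56.5% of lambda V counts in Saline replicate 1, 69.6% in EGF replicate 5 and 0% in EGF replicate 3. In Saline replicate 1 and EGF replicate 3 Iglc2 likewise held 42.9% and 3.49% of the 3 Iglc genes, but in EGF replicate 5 it held 10.6%.

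Iglv3, the rarest lambda gene, had 44, 42, 34, 31 and 9 counts in Saline replicates 1 to 5 and 8, 4, 9, 8 and 0 in EGF replicates 1 to 5. In CPM only Saline replicate 5 (1.20) fell within the EGF range, below EGF replicate 3 (1.28). The log2 fold change was -2.42 (SE 0.68). Its edgeR adjusted p was 0.552, so it did not pass that test, while DESeq2 called it lower (adjusted p = 0.0406). Iglc2 was also lower in the mean, at 76.5 ± 72.7 CPM with saline and 18.0 ± 16.5 CPM with EGF (SD, n = 5 each; edgeR adjusted p = 0.552). Its log2 fold change was -2.09, or -1.31 without Saline replicate 1 and -2.83 without EGF replicate 1.

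In the test of EGF against saline over all genes, no light-chain V gene passed. Of the 90 members, 50 passed the filter on low counts, and edgeR (quasi-likelihood F test, Benjamini-Hochberg adjusted over 12874 genes) called 0 of them higher and 0 lower (lowest adjusted p = 0.552). Over all genes it called 0.00777% higher and 0.0% lower. With p left unadjusted, 0 members were higher and 7 lower at the 0.05 level, where 6.14% of all genes were higher and 2.73% lower. A log2 fold change below 0 was found for 36 of the 50 members, with a median of -0.75, against 51.5% of all genes with a median of -0.01. Without EGF replicate 5, 38 of 56 members were below 0 (median -0.62), against 6557 of all 13104 genes tested, and 0 members passed, where 0.0305% of all genes were called higher and 0.0305% lower. With p left unadjusted, 3 members were then higher and 8 lower at the 0.05 level. The share of all genes at that level was not counted without EGF replicate 5, so nothing is read from these counts. The groups overlapped for all 50 members. Over all genes tested, 1.62% were higher and 1.65% lower with no overlap. These shares are too small for the overlap in all 50 members to set them apart from other genes.

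DESeq2 called 3 members lower and 0 higher among 68 with an adjusted p, where over all genes it called 0.0716% higher and 0.0895% lower. They were Igkv1-135 (adjusted p = 0.041), Iglv3 and Igkv8-16 (adjusted p = 0.0264). Igkv1-135 (chromosome 6, 67609713 to 67610508, plus strand) had 50.5, 96.5, 78.7, 411 and 15.0 CPM in Saline replicates 1 to 5 and 21.6, 12.6, 11.7, 23.2 and 7.28 CPM in EGF replicates 1 to 5. Saline replicate 5 lay within the EGF range and the other 4 above it. The log2 fold change was -3.08 (SE 0.75, edgeR adjusted p = 0.552) and came to -1.98 without Saline replicate 4. Its near-copy Igkv1-133 is 96.5% identical but had only 38 counts over all libraries, 37 of them in Saline replicate 4, against 5574 for Igkv1-135. How reads that fit both genes were counted was not stated. Igkv8-16, named after its values were seen, had 0, 198, 62, 14 and 27 counts with saline and 1, 0, 0, 0 and 1 with EGF, and was left out of the edgeR test by the filter on low counts.

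Igkv4-86 and Igkv12-89, the other members with the smallest p in the lower direction, were at 0 in Saline replicate 3 and in 4 and 3 EGF libraries. Igkv4-86 had 49, 51, 0, 92 and 72 counts in Saline replicates 1 to 5 and 0, 12, 0, 0 and 0 in EGF replicates 1 to 5. Igkv12-89 had 1959, 358, 0, 139 and 361 counts with saline and 0, 81, 83, 0 and 0 with EGF, so that Saline replicate 1 held 65.7% of them. Igkv15-103 (chromosome 6, 68437440 to 68437925) was the second most abundant gene and had 180, 174, 227, 42.5 and 111 CPM with saline and 7.90, 34.3, 129, 26.0 and 3.36 CPM with EGF. EGF replicate 3 alone reached the Saline range (log2 fold change -1.88, SE 0.79, edgeR adjusted p = 0.552), and without that library the log2 fold change was -3.03.

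Further members with an unadjusted p under 0.05 were Igkv1-110 and Igkv10-96. Igkv1-110 had 314, 120.1, 39.1, 40.7 and 51.8 CPM with saline and 61.7, 14.4, 47.8, 12.03 and 0.42 CPM with EGF (log2 fold change -2.05, SE 0.89, edgeR adjusted p = 0.552), or -1.21 without Saline replicate 1. Its near-copy Igkv1-117 shares a stretch of 142 bases with it. Igkv10-96 had 89.5, 48.2, 37.0, 254 and 52.1 CPM with saline and 16.6, 0, 38.7, 0 and 15.4 CPM with EGF (log2 fold change -2.78, SE 1.06, edgeR adjusted p = 0.552), or -2.01 without Saline replicate 4 and -3.60 without EGF replicate 3. In both genes EGF replicates 2, 4 and 5 lay below all Saline libraries and EGF replicate 3 within their range.

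In the higher direction the members with the smallest p were high in 1 or 2 EGF libraries each, Igkv8-27 excepted. Igkv14-111 (chromosome 6, 68256389 to 68256869, plus strand) had 0.127, 35.0, 9.63, 31.3 and 71.4 CPM with saline and 14.4, 8.63, 459, 150.4 and 10.8 CPM with EGF, so that EGF replicates 3 and 4 lay above all Saline libraries and the other 3 within their range. Its log2 fold change was 2.13 (SE 1.23, edgeR adjusted p = 0.584) and was 0.65 without EGF replicate 3 and 2.77 without Saline replicate 5. Igkv16-104 had 27.4, 14.7, 0, 18.6 and 16.2 CPM with saline and 234, 9.53, 0.285, 21.6 and 0 CPM with EGF. Its log2 fold change of 1.79 (SE 1.43, edgeR adjusted p = 0.667) turned to -0.96 without EGF replicate 1. Igkv17-121, which has a near-copy in Igkv17-127 (97.99% identical), had 452 counts in EGF replicate 4, 170 in EGF replicate 1 and 0 to 80 in the others. Igkv8-27 was more even, at 15.0 ± 11.0 CPM with saline and 25.1 ± 16.1 CPM with EGF (SD, n = 5 each; edgeR adjusted p = 0.765).

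Among the remaining leading genes a few libraries set the means. Igkv5-39 (chromosome 6, 69900424 to 69900977, minus strand) was at 65.6 ± 43.0 CPM with saline and 67.2 ± 83.0 CPM with EGF, with EGF replicates 1 and 3 at 174 and 141 CPM and the other EGF libraries at 3.61 to 9.20 CPM. Igkv8-30 was at 44.5 ± 16.2 and 40.2 ± 34.2 CPM (SD, n = 5 each). Igkv19-93 (chromosome 6, 68736297 to 68736780, minus strand) was at 441 CPM in Saline replicate 4 and at 0.508 to 16.3 CPM in the other Saline libraries, against 10.4 to 60.9 CPM with EGF. Its log2 fold change was -1.92 (SE 1.25) with all libraries and 1.28 without Saline replicate 4, so that a single library set its sign.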

How the data were processed

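RNA of HSPCs from irradiated C57BL/6 mice was sequenced in 10 libraries, 5 Saline and 5 EGF. Per the labels' protocols, a Qiagen RNeasy Micro kit gave the RNA, and rRNA depletion and PCR were part of the Clontech library kit. Builds GRCm38 and mm10 and the tools STAR and bcl2fastq 2.17 are listed in the submitters' processing notes. Not given in the sources used here: how reads were counted, whether by strand, and what was done with reads that fit several genes. The authors deposited whole-number counts per gene, unnormalized, 1 file per library. PCR copies cannot be told apart, so intervals cover counting error only.

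Members and gene lists were chosen with earlier results of these data known. Counts were tested with edgeR 4.0.16 (R 4.3.3): TMM scaling, filterByExpr (minimum count 10), a quasi-likelihood F test over the 10 libraries, and Benjamini-Hochberg adjustment over all genes with a threshold of 0.05. SEs come from the F statistic. Alternatives were RLE and library-size scaling, DESeq2 1.42.0, no filter, the replicate number as a block, and each library left out. Intervals of shares are exact binomial (95%, scipy 1.17.1). The expected number of genes at equal counts is the exact hypergeometric value. Positions, exonic lengths and sequences of all 90 members are from GENCODE M21 (GRCm38), and identities from global alignment (Biopython 1.88). Chi-square per degree of freedom was 5.48 to 32.8 between library pairs without EGF replicate 5 and 76.3 to 114 in pairs with it. All were above sampling noise, so no pair looked like repeat deposits of 1 library. That does not show separate mice. Named members were the 10 of highest mean share, the leading gene of each library, all lambda genes, those with the smallest p in each direction (4 each), and any with 90% or more of its counts, and at least 100 counts, in 1 library, which none had. Genes named outside this rule are marked as such, are second in a library, lie at the count limit or are named as near-copies.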

Additional observations from a re-analysis of the deposited data

Results flagged for a closer look

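Libraries far from the other 4 of their group were looked for in 32 measures, each in both groups (64 groups of 5), by the gap of the extreme library to its neighbour over the whole range, with a critical ratio of 0.71. Chance gives about 1 in 20 such groups. In 15 groups a library stood apart, always above the others. Several of the genes were named because they led a library or had a small p, which favours a single high library, so the 15 cannot be read against that chance rate.

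Saline replicate 4 stood apart most often. It had 67.9 V genes at equal counts against 43.0 to 48.4 in the other Saline libraries, Igkv19-93 at 441 CPM against 0.508 to 16.3, Igkv1-135 at 411 CPM against 15.0 to 96.5, and Igkv10-96 at 254 CPM against 37.0 to 89.5. Saline replicate 1 had Igkv12-89 at 249 CPM against 0 to 48.2, Iglv2 at 98.9 CPM against 3.11 to 17.6, and Iglc2 at 204 CPM against 21.4 to 56.1.

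Among the EGF libraries, replicate 3 had Igkv15-103 at 129 CPM against 3.36 to 34.3, Iglv1 at 99.7 CPM against 10.5 to 35.5, and Iglc1 at 192 CPM against 7.28 to 58.4. Replicate 1 had Igkv16-104 at 234 CPM against 0 to 21.6 and Iglc2 at 46.6 CPM against 7.79 to 17.5. Replicate 2 had Igkv19-93 at 60.9 CPM against 10.4 to 21.8 and Igkv4-86 at 1.54 CPM against 0 in the others. In replicate 5 the light-chain V level was 5.55 times that of Jchain, against 2.33 to 2.86 times in the other EGF libraries.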

How the results depend on the processing

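The count of all genes called higher was 1 by edgeR and 0 lower. It was 0 higher with library-size scaling and with the replicate block, 12 higher and 15 lower by DESeq2, and 0 to 4 in each direction with a library left out (4 and 4 without EGF replicate 5). Of the light-chain V genes, DESeq2 called 3 lower, and every other setting run called 0. Same-numbered libraries did not deviate together (correlations -0.07 to 0.02 over 5 pairs, and 0 of 5 Saline libraries matched their own number best). What the numbers stand for was not stated, and 5 such correlations cannot exclude a pairing. Of 330 values for 22 genes, 316 kept their direction and did not cross the threshold. Among them, the DESeq2 values of Igkv19-93 and Igkv16-104 had no adjusted p and kept their direction only. By DESeq2 2 passed the threshold, and 12 values of 4 genes turned. With the replicate block Igkv5-39 came to -1.30, Igkv19-93 to 0.74 and Igkv16-104 to -0.10. With a library left out Igkv5-39 ranged from -0.70 to 0.38, Igkv19-93 from -2.54 to 1.28, Igkv8-30 from -0.79 to 0.085 and Igkv16-104 from -0.96 to 2.12. The cause was not tested. The summed level (-1.04 to -0.58), the leading share (1.24 to 6.05 points) and the effective number (-0.46 to -0.12, log2) kept their sign with any library left out. The lambda share (-0.96 to 0.24 points) did not. The number of genes at equal counts ranged from -7.78 to -1.44. The leading share per length and that of Igkv14-126 (3.01 and 4.32 points) and the lambda share per length (-0.41) were added after the data were seen. Counted by family, the leading share differed by 7.72 points. With 3859 light-chain V counts, EGF replicate 5 limits what rare V genes can show.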

Other observations

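Outside the members, the 60 light-chain V pseudogene rows summed to 0 to 14 counts per library, and 6 of them had a count at all. The 3 Igkv rows that the files type as protein coding (Igkv4-54, Igkv4-62 and Igkv4-71) summed to 86 counts in Saline replicate 4 and 37 in Saline replicate 5, and to 0 to 2 in the other libraries. The 5 kappa J rows summed to 0 to 41 counts per library, with 0 in EGF replicate 5.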
